A study of Homo sapiens with 43 samples.

Results

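Cholesterol synthesis and the genes switched on by sterol regulatory element-binding proteins (SREBPs) were followed here as a module of 28 genes, chosen by name for sterol synthesis, sterol transport and uptake control, the SREBP pathway, and the SREBP-driven steps of fatty acid synthesis. All 28 were among the 58347 annotated gene entries of the RNA-seq count table, and all 28 were among the 21300 entries that passed the filter on low counts. All libraries came from HEL, an erythroleukemia line of human origin, transduced stably with U2AF1. U2AF1 is the small subunit of U2AF, which marks the 3' splice site for the spliceosome. Induced cells had received doxycycline at 1 µg/ml for 48 hours, the labels' inducer of the introduced U2AF1, and uninduced cells carried the same transgene without doxycycline. The RNA-seq groups were induced S34F cells (2 libraries), uninduced S34F cells (1 library), induced Q157R cells (2 libraries), uninduced Q157R cells (1 library), induced wild-type (WT) cells (2 libraries) and uninduced WT cells (2 libraries). S34F and Q157R are cancer-associated amino acid changes in U2AF1. The cells' own U2AF1 gene was present in every group, and whether a line was 1 clone or a pool is not given in the sources used here. The replicates are called biological, with no mention of separate cultures, so p-values measure the spread between these libraries, which may be partly technical.

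Cholesterol is built from acetyl-CoA through the mevalonate pathway, which yields isoprenoids and then squalene, and squalene is closed into lanosterol and trimmed to cholesterol in the endoplasmic reticulum. When membrane sterol is low, SCAP carries the SREBP precursors from the endoplasmic reticulum to the Golgi, where they are cut, and the freed domains enter the nucleus and turn on the synthesis genes. When sterol is plentiful, INSIG1 holds SCAP in the endoplasmic reticulum and the module is turned down, so its genes tend to move together. Dividing leukemia cells use the pathway for membranes and for the prenylation of signalling proteins.

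Promoter sequences (250 bases before to 50 after the transcription start, RefSeq, GRCh38.p14) were found for 24 of the 28 genes. They are shown for 4: SREBF2, whose window alone held the core of the sterol regulatory element, ACLY, FDPS and TM7SF2. ACLY and FDPS passed the test in the RNA comparisons below, and TM7SF2 was higher in induced than in uninduced cells of each line. These last 3 genes were picked after their values were seen. Capitals mark the sterol regulatory element core TCACNCCAC (N is any base) and the NF-Y box CCAAT, or ATTGG where the box lies on the other strand.
SREBF2, chr22:41832855-41833154, plus strand: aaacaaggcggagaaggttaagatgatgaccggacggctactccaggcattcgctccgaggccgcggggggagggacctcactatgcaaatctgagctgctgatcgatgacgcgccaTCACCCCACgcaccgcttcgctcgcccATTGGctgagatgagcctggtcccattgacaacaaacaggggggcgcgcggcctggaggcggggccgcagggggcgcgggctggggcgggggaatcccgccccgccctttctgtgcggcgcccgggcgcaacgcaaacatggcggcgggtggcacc
ACLY, chr17:41918973-41919272, minus strand: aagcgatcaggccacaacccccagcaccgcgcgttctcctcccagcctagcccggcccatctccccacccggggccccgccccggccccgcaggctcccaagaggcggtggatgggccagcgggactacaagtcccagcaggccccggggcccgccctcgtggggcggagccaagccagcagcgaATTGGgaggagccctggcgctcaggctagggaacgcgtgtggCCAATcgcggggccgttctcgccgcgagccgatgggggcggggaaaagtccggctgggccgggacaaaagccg
FDPS, chr1:155308616-155308915, plus strand: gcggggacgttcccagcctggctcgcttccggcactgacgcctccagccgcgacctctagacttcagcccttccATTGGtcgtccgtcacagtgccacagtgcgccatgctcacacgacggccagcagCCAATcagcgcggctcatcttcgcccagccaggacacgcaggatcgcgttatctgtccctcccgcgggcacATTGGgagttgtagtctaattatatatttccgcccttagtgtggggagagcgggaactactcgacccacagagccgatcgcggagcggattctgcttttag
TM7SF2, chr11:65111622-65111921, plus strand: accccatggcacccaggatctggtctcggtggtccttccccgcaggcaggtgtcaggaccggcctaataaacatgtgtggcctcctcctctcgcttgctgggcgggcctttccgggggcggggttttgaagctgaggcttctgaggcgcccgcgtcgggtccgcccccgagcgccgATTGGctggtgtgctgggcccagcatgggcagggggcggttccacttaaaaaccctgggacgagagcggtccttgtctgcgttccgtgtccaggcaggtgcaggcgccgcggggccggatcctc
The SREBF2 window held TCACCCCAC starting 133 bases before the start and an ATTGG box 106 bases before it. Boxes lay 65 and 23 bases before the ACLY start, and 176, 122 and 51 bases before the FDPS start. TM7SF2 had a single box, 74 bases before its start. These are RefSeq starts, and they differ from the starts of the GENCODE spans given below for ACLY, FDPS and TM7SF2. The ACLY window lies wholly inside the GENCODE span of that gene. Searched on both strands, CCAAT was present in 17 of the 24 module promoters (70.8%), against 34.6% of all 35116 promoter windows and 34.7% of the 22199 windows of protein-coding genes. The GC box GGGCGG was in 23 of 24 (95.8%), against 45.0% of all and 56.3% of protein-coding windows. The E-box CACGTG was in 4 of 24 (16.7%), against 7.26% of all and 8.34% of protein-coding windows. TCACNCCAC was in 1 of 24 (4.17%), against 1.13% of all and of protein-coding windows alike. None of the 4 motifs contains another, and a window without a match says only that these letters were not in it.

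RNA-seq libraries held 22392303 to 40370092 counts in genes, 43.6% to 56.1% of the reads in the table, and the members had 531 (CYP51A1) to 310905 (FASN) counts summed over the 10 libraries. Levels below are CPM, the counts of a gene scaled to library size with TMM factors. U2AF1 had 18.01 and 19.4 CPM in induced against 21.2 CPM in uninduced S34F cells, 21.5 and 15.2 against 22.1 CPM in Q157R cells, and 19.1 and 11.01 against 13.4 and 12.6 CPM in WT cells. Induced libraries were thus below the uninduced one in the S34F and Q157R lines and overlapped the uninduced ones in the WT line. Gene counts do not separate the transgene from the cells' own gene. They showed no consistent rise of U2AF1 on doxycycline, so the induction is not seen in them, and the reason was not tested. U2AF2 had far higher levels, from 161 CPM (induced S34F replicate 2) to 399 CPM (uninduced WT replicate 1). Whether the transgene was expressed cannot be judged from the U2AF1 entry. The 11 erythroid and megakaryocytic markers summed to 2495 and 2558 CPM in induced S34F cells, 3620 CPM in uninduced S34F cells, 2819 to 3743 CPM in Q157R cells and 3260 to 3793 CPM in WT cells. Lymphoid, monocytic, stromal and hepatocytic marker lists each summed to at most 2.32 CPM in any library, and an epithelial list that includes KRT8 and KRT18 to 84.4 to 175 CPM. Reads that fell in no annotated feature made up 33.6% ± 0.14 in induced S34F cells, 25.1% ± 2.65 in induced Q157R cells and 22.7% ± 0.029 in induced WT cells (SD, n = 2 each), and 19.2% ± 0.39 in uninduced WT cells (SD, n = 2), with 20.3% in the uninduced S34F library and 20.6% in the uninduced Q157R library.

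**Figure D1:**
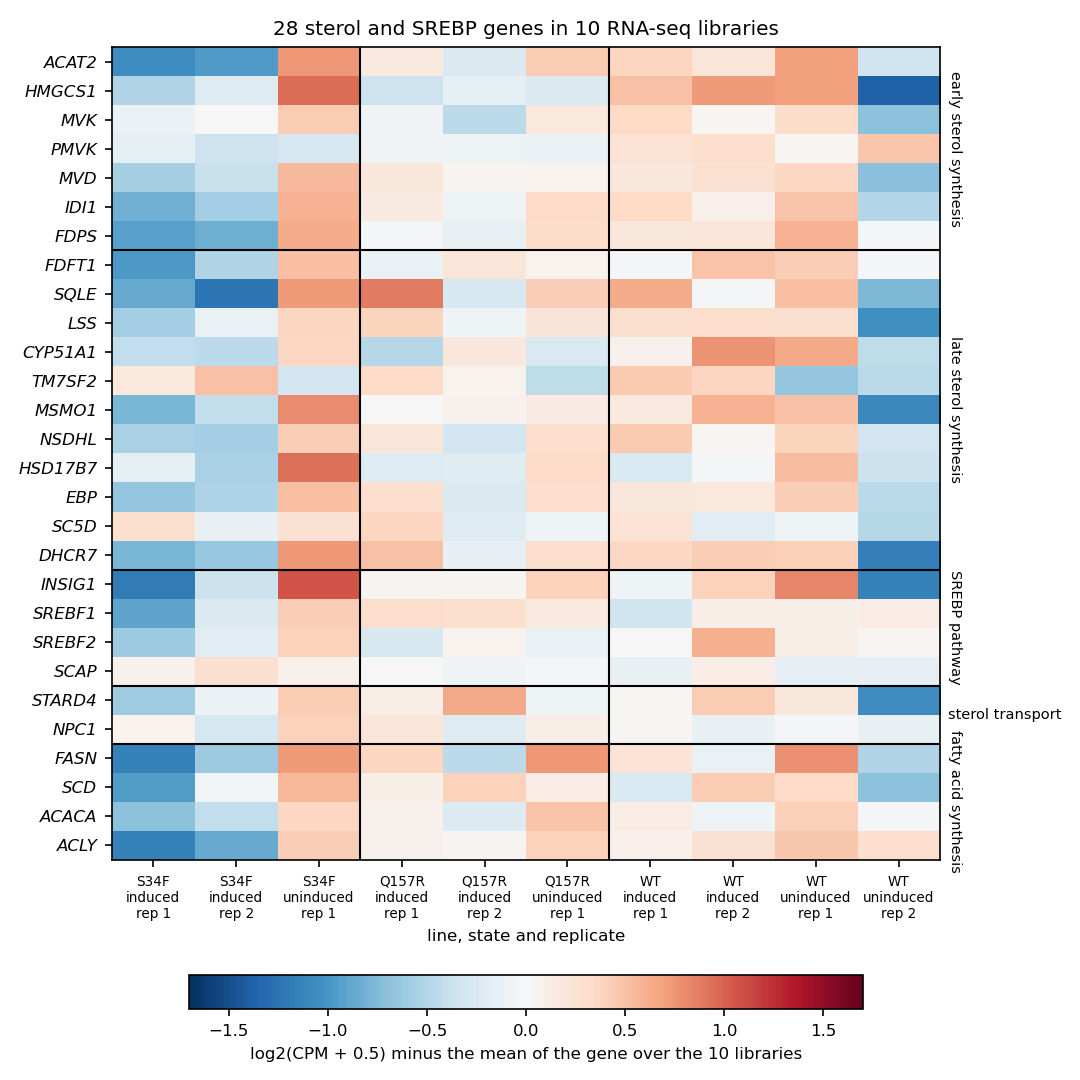
Level of each of the 28 genes (rows, grouped by role) in each of the 10 RNA-seq libraries (columns), as log2(CPM + 0.5) minus the mean of that gene over the libraries, with blue low and red high. Both induced S34F libraries and uninduced WT replicate 2 are blue for most genes, and TM7SF2 and SCAP do not follow.

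Per kilobase of exon, SCD, the stearoyl-CoA desaturase, had the highest level in induced WT cells at 156 and 251 CPM per kb. SQLE followed at 156 and 97.9, FASN at 120 and 95.0, and ACLY at 98.4 and 112 CPM per kb. Each overlaps the next in this order, so neighbours among these 4 cannot be ranked. At the low end, TM7SF2 had 3.56 and 3.34, HSD17B7 1.58 and 1.86, and CYP51A1 0.508 and 0.904 CPM per kb, with no overlap among these 3. CYP51A1 encodes the lanosterol demethylase, and 79.4% of its exon bases were shared with other genes on the same strand, so its reads may have been split or discarded in counting. Its level and its changes are uncertain. FDPS has 8 named pseudogenes, CYP51A1 has 3, HSD17B7 has 2 and SCD has 1, and reads shared with these copies are uncertain in the same way.

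The first comparison asks how the genes differed between induced S34F cells and induced WT cells. In induced S34F cells, 26 of the 28 genes had a lower estimate than in induced WT cells, with a median log2 fold change of -0.75. The median was 0.00 over all 21300 entries and -0.16 over protein-coding genes, of which 61.3% had an estimate below 0. ACLY, which makes cytosolic acetyl-CoA from citrate, was the only member to pass the adjusted p threshold of 0.05, and it fell 2.25-fold. In all, 356 of the 21300 entries (1.67%) passed, 211 lower and 145 higher. Scaling by protein-coding genes alone moved the median of all entries to 0.14 and the calls to 91 lower and 203 higher, with ACLY still called, 24 of 28 members below 0 and a members' median of -0.61. Libraries with the same replicate number deviated from their group means together, and with that number as a block in the fit 11 members passed, all lower, against 22.4% of all entries and 27.2% of protein-coding genes. In libraries of bulk RNA, fewer cells of a type and less RNA per cell cannot be told apart.

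ACLY had 219 and 267 CPM in induced S34F cells, against 514 and 582 CPM in induced WT cells. It had 509 and 499 CPM in induced Q157R cells, against 636 CPM in uninduced Q157R cells. The uninduced levels were 646 CPM in S34F cells and 667 and 592 CPM in WT cells. The 2 induced S34F libraries were thus the lowest of all 10, with no overlap with any other group. No share of all entries is given for this lowest-of-10 pattern, here or where it recurs below. The gene lies at chr17:41866908-41930542 on the minus strand (GENCODE 29, GRCh38). The log2 fold change of S34F against WT was -1.17, SE 0.17, adjusted p = 0.0443 by edgeR's quasi-likelihood test, and adjusted p = 0.000703 with the block. Without the block the call was lost when any 1 of the 4 libraries was left out, with adjusted p between 0.12 and 0.359 and log2 fold changes between -1.32 and -1.03.

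Among the genes from acetoacetyl-CoA to farnesyl diphosphate, all 7 had a lower estimate in induced S34F than in induced WT cells (median -0.92). With the block 4 of them fell, against 22.4% of all entries and 27.2% of protein-coding genes called. ACAT2, the cytosolic acetoacetyl-CoA thiolase that opens the pathway, had 20.5 and 22.05 CPM in induced S34F cells, against 56.1 and 50.2 CPM in induced WT cells. Its other levels were 72.3 CPM in uninduced S34F cells, 48.9 and 36.4 CPM in induced and 58.9 CPM in uninduced Q157R cells, and 70.6 and 34.1 CPM in uninduced WT cells. The induced S34F libraries lay below all 8 others. Its log2 fold change against WT was -1.32, SE 0.33, adjusted p = 0.0748, and the adjusted p was 0.00468 with the block. ACAT2 shares 52.3% of its exon bases with genes on the opposite strand (TCP1 and SOD2 among them), and the strand setting of the counting is not given in the sources used here, so part of its reads cannot be assigned with certainty.

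FDPS, farnesyl diphosphate synthase, lies at chr1:155308748-155320666 on the plus strand (GENCODE 29, GRCh38). It had 63.1 and 67.6 CPM in induced S34F cells, against 137 and 138 CPM in induced WT cells, and 187 CPM in uninduced S34F cells. Q157R cells had 118 and 110.4 CPM induced and 149.8 CPM uninduced, and uninduced WT cells had 182 and 117 CPM. As for ACAT2, the 2 induced S34F libraries were the lowest of the 10. In S34F against WT the log2 fold change was -1.08, SE 0.22, adjusted p = 0.0525, and the adjusted p was 0.00217 with the block. IDI1, the isopentenyl diphosphate isomerase, had 45.9 and 54.3 CPM in induced S34F cells, against 103 and 86.3 CPM in induced WT cells. Its level was 123 CPM in uninduced S34F cells, 90.5 and 76.8 CPM in induced and 102 CPM in uninduced Q157R cells, and 114 and 57.6 CPM in uninduced WT cells. Uninduced WT replicate 2 came close to the S34F range. The S34F against WT log2 fold change of IDI1 was -0.92, SE 0.30, adjusted p = 0.128, and the adjusted p was 0.0277 with the block.

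PMVK, phosphomevalonate kinase, had 26.4 and 23.3 CPM in induced S34F cells, against 35.3 and 36.6 CPM in induced WT cells. Its level was 24.5 CPM in uninduced S34F cells, 28.6 and 28.1 CPM in induced and 27.9 CPM in uninduced Q157R cells, and 30.6 and 41.7 CPM in uninduced WT cells. The 4 WT libraries were the 4 highest, induced or not. Its S34F against WT log2 fold change was -0.54, SE 0.20, adjusted p = 0.16, and the adjusted p was 0.0464 with the block. HMGCS1, the HMG-CoA synthase, had 71.3 and 87.4 CPM in induced S34F cells, against 144 and 168 CPM in induced WT cells. It stood at 198 CPM in uninduced S34F cells, 79.9 and 91.2 CPM in induced and 85.9 CPM in uninduced Q157R cells, and 165 and 39.0 CPM in uninduced WT cells. The 2 uninduced WT libraries enclosed the values of all groups but uninduced S34F and 1 induced WT library, and neither fit called it (log2 fold change -0.98, SE 0.53, adjusted p = 0.305; 0.432 with the block). MVK, mevalonate kinase, had 22.9 and 24.7 CPM in induced S34F cells, 33.4 CPM in uninduced S34F cells, 23.7 and 17.98 CPM in induced and 27.8 CPM in uninduced Q157R cells, 31.4 and 25.2 CPM in induced WT cells and 30.7 and 15.04 CPM in uninduced WT cells. MVD, the mevalonate diphosphate decarboxylase, ranged over the 10 libraries from 28.5 CPM in uninduced WT replicate 2 to 68.9 CPM in uninduced S34F cells. Neither MVK nor MVD passed in S34F against WT (log2 fold changes -0.25 and -0.70).

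**Figure D2:**
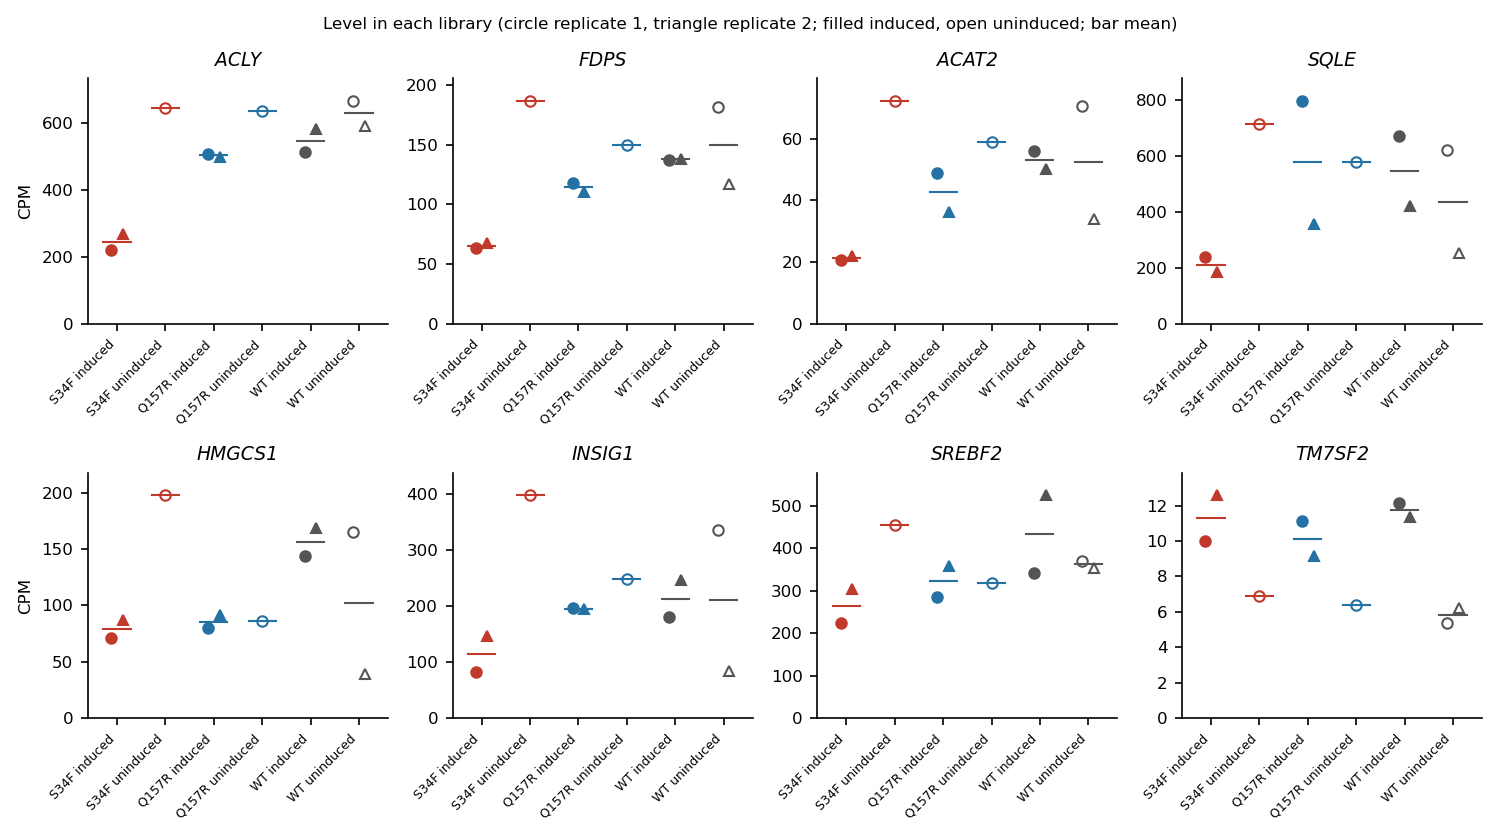
Level in CPM (linear axis from 0) of 8 genes in each RNA-seq library, by line and state, with circles for replicate 1, triangles for replicate 2, filled symbols for induced and open for uninduced cells, and a bar at each group mean. Induced S34F libraries are lowest for ACLY, FDPS, ACAT2 and SQLE, uninduced WT replicate 2 is lowest for HMGCS1, and TM7SF2 is higher in induced than in uninduced cells of each line.

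From squalene synthesis to cholesterol, 10 of 11 genes had a lower estimate in induced S34F than in induced WT cells (median -0.83). With the block 4 fell (FDFT1, SQLE, NSDHL and EBP), against 22.4% of all entries and 27.2% of protein-coding genes called. FDFT1, squalene synthase, had 81.7 and 113 CPM in induced S34F cells, against 156.996 and 225 CPM in induced WT cells. It had 229 CPM in uninduced S34F cells, 149 and 186 CPM in induced and 169 CPM in uninduced Q157R cells, and 216 and 157.1 CPM in uninduced WT cells. Again the induced S34F libraries were the lowest. Between induced S34F and WT cells the log2 fold change was -0.97, SE 0.26, adjusted p = 0.0877, and the adjusted p was 0.0124 with the block.

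SQLE, squalene epoxidase, an oxygen-dependent and sterol-responsive step, had 239 and 183 CPM in induced S34F cells, against 672 and 421 CPM in induced WT cells. It had 715 CPM in uninduced S34F cells, 797 and 356 CPM in induced and 578 CPM in uninduced Q157R cells, and 619 and 254 CPM in uninduced WT cells. Replicate 2 was below replicate 1 in each of the 4 groups with 2 libraries, and both induced S34F values were below every other library. Its log2 fold change against WT was -1.37, SE 0.50, adjusted p = 0.153 without the block, and -1.33 (SE 0.20, adjusted p = 0.0021) with it. NSDHL, a sterol dehydrogenase of C4 demethylation, had 24.8 and 24.2 CPM in induced S34F cells, against 49.8 and 37.3 CPM in induced WT cells. It had 49.0 CPM in uninduced S34F cells, 42.2 and 29.1 CPM in induced and 44.5 CPM in uninduced Q157R cells, and 47.4 and 29.03 CPM in uninduced WT cells. The nearest libraries to the S34F values were induced Q157R replicate 2 and uninduced WT replicate 2. In S34F against WT the log2 fold change was -0.83, SE 0.29, adjusted p = 0.144, and the adjusted p was 0.00887 with the block. EBP, the sterol isomerase also known as emopamil-binding protein, had 28.2 and 31.1 CPM in induced S34F cells, against 51.1 and 50.6 CPM in induced WT cells. It had 63.6 CPM in uninduced S34F cells, 54.8 and 37.6 CPM in induced and 55.3 CPM in uninduced Q157R cells, and 59.7 and 32.5 CPM in uninduced WT cells. Uninduced WT replicate 2 was nearest to the S34F values. Between induced S34F and WT cells the log2 fold change was -0.78, SE 0.30, adjusted p = 0.174, and the adjusted p was 0.033 with the block.

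Of the other genes of this branch, LSS, the lanosterol synthase, had 90.3 and 125 CPM in induced S34F cells, against 164 and 167 CPM in induced WT cells. It had 174 CPM in uninduced S34F cells, 176 and 129 CPM in induced and 157.3 CPM in uninduced Q157R cells, and 164 and 65.6 CPM in uninduced WT cells. Its lowest library was uninduced WT replicate 2, below both induced S34F libraries, and neither fit called it in S34F against WT (log2 fold change -0.62, SE 0.39, adjusted p = 0.364). DHCR7, which makes cholesterol from 7-dehydrocholesterol, had 54.7 and 60.3 CPM in induced S34F cells, against 121 and 127 CPM in induced WT cells. The groups did not overlap, yet neither fit called it (log2 fold change -1.11, SE 0.44, adjusted p = 0.187; 0.163 with the block). MSMO1, the C4 methyl sterol oxidase, was also without overlap and uncalled, with a log2 fold change of -0.99, as was CYP51A1 with -1.15. HSD17B7, the 3-keto reductase of C4 demethylation, had 8.08 and 6.05 CPM in induced S34F cells, against 7.53 and 8.87 CPM in induced WT cells. It had 17.8 CPM in uninduced S34F cells, 7.70 and 7.81 CPM in induced and 11.5 CPM in uninduced Q157R cells, and 13.3 and 6.95 CPM in uninduced WT cells. Its induced groups overlapped. SC5D, the lathosterol desaturase, was the only gene of the branch with an estimate above 0, at 0.03.

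TM7SF2, a sterol C14 reductase whose step LBR can also carry out, stood apart from the branch in its levels with and without doxycycline. It had 10.0 and 12.6 CPM in induced S34F cells, 6.90 CPM in uninduced S34F cells, 11.1 and 9.15 CPM in induced and 6.37 CPM in uninduced Q157R cells, 12.1 and 11.4 CPM in induced WT cells and 5.36 and 6.24 CPM in uninduced WT cells. All 6 induced libraries lay above all 4 uninduced ones, whatever the line, and the share of all entries with that split is not given. FAXDC2, a gene outside the module named below, had the same split (18.6 to 109 CPM induced, 14.4 to 17.9 CPM uninduced). Between induced S34F and induced WT cells the TM7SF2 ranges overlapped (log2 fold change -0.06, SE 0.24, adjusted p = 0.906), as did those of HSD17B7 and SC5D. TM7SF2 lies at chr11:65111845-65116384 on the plus strand (GENCODE 29, GRCh38), and 0.5% of its exon bases are shared with VPS51 on the same strand.

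Within the SREBP pathway, 3 of 4 genes had a lower estimate in induced S34F than in induced WT cells (median -0.58). With the block SREBF2 alone fell, a share near the 22.4% of all entries and 27.2% of protein-coding genes called. SREBF2, which encodes the SREBP that chiefly drives sterol genes, had 224 and 304 CPM in induced S34F cells, against 342 and 525 CPM in induced WT cells. It had 454 CPM in uninduced S34F cells, 284 and 359 CPM in induced and 319 CPM in uninduced Q157R cells, and 371 and 354 CPM in uninduced WT cells. Induced S34F libraries were below all others except 1 induced Q157R library, which lay between them. Its log2 fold change against WT was -0.72, SE 0.25, adjusted p = 0.144, and the adjusted p was 0.0105 with the block. SREBF1, which encodes the SREBP isoforms that favour fatty acid genes, had 98.1 and 153 CPM in induced S34F cells, against 144 and 197 CPM in induced WT cells. It had 244 CPM in uninduced S34F cells, 224 and 219 CPM in induced and 205 CPM in uninduced Q157R cells, and 195 and 198 CPM in uninduced WT cells. The induced S34F and WT ranges overlapped (log2 fold change -0.44, SE 0.24, adjusted p = 0.3).

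INSIG1, the sterol-sensing brake on SCAP and itself an SREBP target, had 82.6 and 146 CPM in induced S34F cells, against 179.6 and 246 CPM in induced WT cells. It had 397 CPM in uninduced S34F cells and 335 and 84.4 CPM in uninduced WT cells. Its 2 uninduced WT libraries lay farther apart than any 2 induced libraries, and neither fit called it (log2 fold change -0.90, SE 0.55, adjusted p = 0.359). SCAP, the SREBP escort protein, had 156 and 178 CPM in induced S34F cells, against 135 and 159.5 CPM in induced WT cells. Its ranges overlapped, and its log2 fold change was 0.18, the highest estimate of the 28. The sterol carrier STARD4, a sterol-responsive transport protein, had 66.0 and 93.5 CPM in induced S34F cells, against 102 and 136 CPM in induced WT cells. It had 136 CPM in uninduced S34F cells, 108 and 157.4 CPM in induced and 95.7 CPM in uninduced Q157R cells, and 115 and 47.7 CPM in uninduced WT cells. STARD4 and NPC1, which exports cholesterol from late endosomes, had log2 fold changes of -0.58 and -0.06 in S34F against WT, and neither was called.

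Of the fatty acid genes, all 4 had a lower estimate in induced S34F than in induced WT cells (median -0.75). With the block ACLY and ACACA fell, against 22.4% of all entries and 27.2% of protein-coding genes called. ACACA, acetyl-CoA carboxylase 1, had 106 and 128 CPM in induced S34F cells, against 188 and 163 CPM in induced WT cells. It had 219.6 CPM in uninduced S34F cells, 181 and 146 CPM in induced and 239.9 CPM in uninduced Q157R cells, and 229 and 170.3 CPM in uninduced WT cells. The induced S34F libraries were the lowest of the 10. In S34F against WT the log2 fold change was -0.58, SE 0.21, adjusted p = 0.151, and the adjusted p was 0.0293 with the block. FASN, fatty acid synthase, had 436 and 629.8 CPM in induced S34F cells, against 1126 and 889.7 CPM in induced WT cells. SCD had 513 and 958 CPM in induced S34F cells, against 834 and 1344 CPM in induced WT cells. FASN did not overlap and SCD did, and neither was called in either fit (log2 fold changes -0.92 and -0.57).

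Across the 28 genes, 21 had both induced S34F libraries below both induced WT libraries, 0 had both above, and 7 overlapped (TM7SF2, HSD17B7, SC5D, SREBF1, SCAP, NPC1 and SCD). Among all entries tested, 27.3% had both S34F libraries lower and 28.9% had both higher. Taken within replicate 1, 24 of 28 genes were lower in S34F than in WT, with a median log2 ratio of -0.84 against -0.13 over protein-coding genes. Within replicate 2 it was 25 of 28, with a median of -0.64 against -0.13. The summed level of the 28 genes averaged 3349 ± 704 CPM in the induced S34F libraries, against 5773 ± 354 CPM in the induced WT ones (SD, n = 2 each). With the low level of the module came a higher share of reads outside features and lower erythroid and megakaryocytic markers. Of the 11 markers, 9 had a lower estimate in S34F than in WT. With the block 4 of them were called lower, against 22.4% of all entries called. The part of the read share or of the markers in the module's values was not tested.

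**Figure D3:**
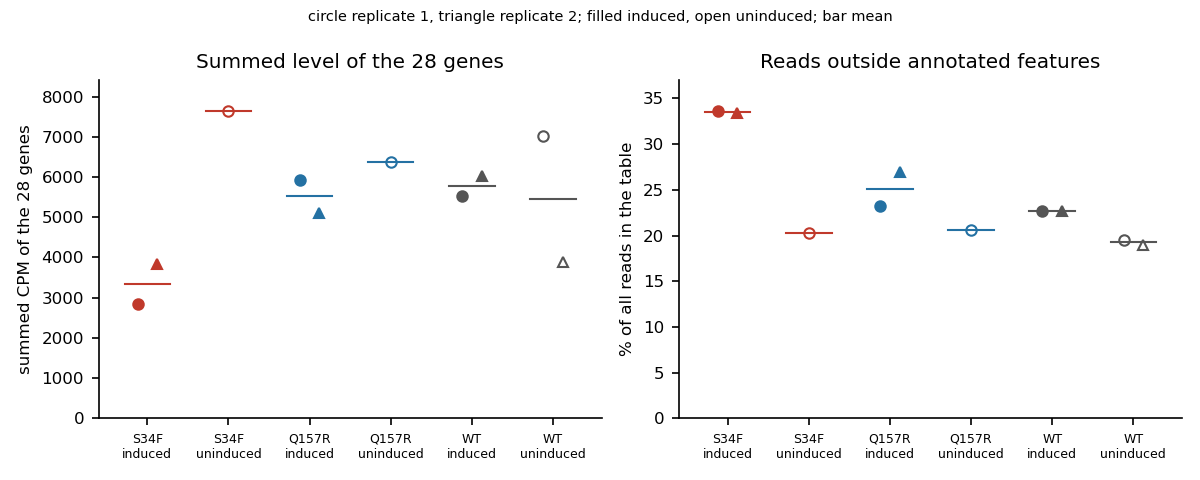
Left, summed level of the 28 genes in CPM in each RNA-seq library. Right, share of all reads in the table that lay outside annotated features, in percent, with circles for replicate 1, triangles for replicate 2, filled symbols for induced and open for uninduced cells, and a bar at each group mean; the induced S34F libraries have the lowest summed levels (2851 and 3847 CPM) and the highest shares, and uninduced WT replicate 2 has 3895 CPM with a share like that of the other uninduced libraries.

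Induced Q157R cells were compared with induced WT cells in the same way, against the same WT libraries. The median estimate was -0.13, against -0.03 over protein-coding genes, and 22 of 28 estimates were below 0. All 7 genes from acetoacetyl-CoA to farnesyl diphosphate were below 0 (median -0.32), and 9 of the 11 from squalene synthesis on (median -0.17). In the SREBP pathway and in fatty acid synthesis 3 of 4 were below 0, and in sterol transport 0 of 2. No member passed, and no entry of the 21300 did (0%), although 716 entries had an unadjusted p under 0.05. With the block, 0 members and 4 entries (0.0188%) passed. Both Q157R libraries were below both WT libraries for 8 members, against 13.4% of all entries, and above them for SREBF1 alone, against 13% of all entries. The lowest unadjusted p among the members belonged to PMVK (log2 fold change -0.34, SE 0.20, adjusted p = 1), followed by SREBF2 (-0.43, SE 0.25, adjusted p = 1) and HMGCS1 (-0.87, SE 0.53, adjusted p = 1). The HMGCS1 levels of induced S34F and induced Q157R cells, given above, overlapped. The replicates differed: within replicate 1, 14 genes were lower and 14 higher in Q157R than in WT, whereas within replicate 2, 26 of 28 were lower with a median log2 ratio of -0.31.

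**Figure D4:**
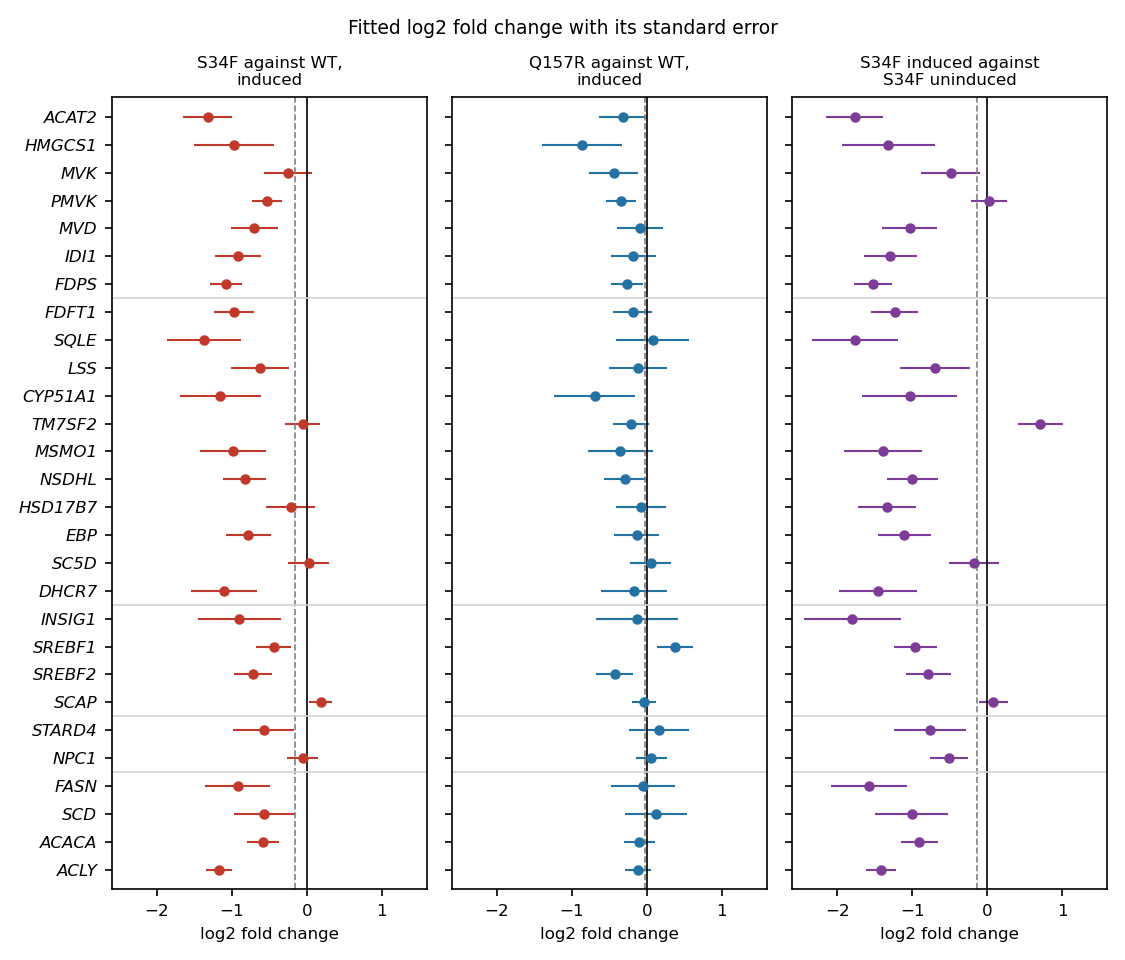
Fitted log2 fold change of each of the 28 genes (points) with its standard error (bars) for induced S34F against induced WT, induced Q157R against induced WT, and induced against uninduced S34F cells, with a dashed line at the median of protein-coding genes and a solid line at 0. Estimates lie mostly below 0 in each panel, with medians of -0.75 and -1.03 in the S34F panels and -0.13 in the Q157R panel.

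Set directly against each other, induced S34F cells had lower estimates than induced Q157R cells for 25 of 28 genes, with a median of -0.62 against -0.12 over protein-coding genes. ACLY fell (log2 fold change -1.05, SE 0.17, adjusted p = 0.0498), and 119 of the 21300 entries (0.559%) passed, 55 lower and 64 higher. With protein-coding scaling ACLY was not called, and the split was 38 lower and 86 higher. Its call was lost when any 1 of the 4 libraries was left out, with adjusted p between 0.0806 and 0.412. With the block, 6 of the 28 members were called, all lower. That share was close to the shares called among all entries (20%) and among protein-coding genes (24.7%). The 6 were ACAT2 (adjusted p = 0.0186), FDPS (0.00961), FDFT1 (0.0313), SQLE (0.00254), SREBF1 (0.00685) and ACLY (0.00134). SREBF1, uncalled against WT, had a log2 fold change of -0.82, SE 0.24, adjusted p = 0.118 against Q157R without the block. Both S34F libraries were below both Q157R libraries for 19 members, against 25.5% of all entries, and above them for SCAP alone, against 27.8% of all entries.

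Comparison with uninduced cells gives the change on doxycycline in each line, and it uses the same induced libraries as above. In the S34F line, 25 of 28 genes had a lower estimate in induced than in uninduced cells, with a median of -1.03 against -0.13 over protein-coding genes. FDPS fell 2.86-fold (log2 fold change -1.52, SE 0.25, adjusted p = 0.0381) and ACLY fell 2.66-fold (-1.41, SE 0.20, adjusted p = 0.034). They were 2 of 418 entries called (1.96%), 268 lower and 150 higher. Protein-coding scaling gave 107 lower and 132 higher and lost FDPS. The uninduced S34F group had a single library, assumed to vary like the other groups. Both calls were lost when either induced S34F library was left out, with adjusted p from 0.167 to 0.259.

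With the block, 12 members fell on induction of S34F, against 19.2% of all entries and 23.7% of protein-coding genes called. They spanned the pathway: ACAT2 (log2 fold change -1.55, adjusted p = 0.00669), IDI1 and FDPS early in it, FDFT1, SQLE (-1.31, adjusted p = 0.00698), NSDHL, HSD17B7 (-1.21, adjusted p = 0.0231) and EBP from squalene synthesis on, and the regulators SREBF1 (-1.12, adjusted p = 0.00552) and SREBF2 (-0.97, adjusted p = 0.00833). ACACA and ACLY fell as well. INSIG1 had the lowest estimate of all 28 without the block, -1.80 (SE 0.64, adjusted p = 0.14), and was not called. TM7SF2 had an estimate above 0, with a log2 fold change of 0.71, SE 0.30, adjusted p = 0.187.

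In the WT line no member passed, with or without the block, and 0 (0%) and 89 (0.418%) of all entries did. At an unadjusted p under 0.05 there were 1363 entries without the block. Estimates were above 0 for 21 of 28 genes, with a median of 0.17, but the replicate pairs disagreed: replicate 1 had a median log2 ratio of -0.19 and replicate 2 one of 0.57. The lowest p belonged to TM7SF2 (log2 fold change 1.02, SE 0.24, adjusted p = 0.693; 0.0677 with the block), then STARD4 (0.55, SE 0.40, adjusted p = 0.846) and LSS (0.53, SE 0.39, adjusted p = 0.846). Both induced WT libraries were above both uninduced ones for 3 of the 28 (LSS, TM7SF2 and SCAP), against 17.8% of all entries, and below them for 1 (ACLY), against 16.3%. In the Q157R line the median was -0.07, and no member passed in either fit. Of all entries, 0 (0%) passed without the block, with 1888 at an unadjusted p under 0.05, and 56 (0.263%) passed with it. The 3 members with the lowest p there were TM7SF2 (log2 fold change 0.67, SE 0.30, adjusted p = 0.561), ACACA (-0.55, SE 0.25, adjusted p = 0.563) and ACLY (-0.34, SE 0.20, adjusted p = 0.608).

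The difference between the induction effects of the S34F and WT lines was tested as an interaction. Estimates were lower in the S34F line for 27 of 28 genes, with a median of -1.24 against -0.13 over protein-coding genes. No member passed without the block, nor did any entry (0%), with 1745 entries and 13 members at an unadjusted p under 0.05. With the block SQLE (log2 difference -1.73, SE 0.32, adjusted p = 0.0445) and ACLY (-1.24, SE 0.23, adjusted p = 0.0396) passed, 2 of 150 entries (0.704%). With the block and without uninduced WT replicate 1 the count was 19 members beside 4.67% of all entries, and without uninduced WT replicate 2 it was 7 members beside 1.02%, an alternative chosen after seeing the data. For the Q157R line against the WT line the median difference was -0.30. No member passed in either fit, with 0 entries (0%) called without the block, 261 at an unadjusted p under 0.05, and 1 entry (0.00469%) called with it. MVK, NSDHL and ACACA were the members with the lowest p in that comparison, at log2 differences of -0.73, -0.51 and -0.37.

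The 2 uninduced WT libraries differed from each other in these genes. Replicate 2 was lower than replicate 1 for 24 of 28 genes, with a median log2 ratio of -0.93, and 18 genes were more than 0.5 lower on the log2 scale. Among protein-coding genes 47.8% were lower and 8.8% by more than 0.5, with a median of 0.02. The same ratio of replicate 2 to replicate 1 had a median over the 28 genes of 0.21 in induced S34F cells, -0.12 in induced Q157R cells and 0.06 in induced WT cells. HMGCS1 differed most, at 165 and 39.0 CPM in the 2 libraries, a log2 ratio of -2.07. INSIG1 followed at -1.98, then MSMO1 at -1.59 and DHCR7 at -1.56. ACLY (-0.17), SREBF2 (-0.07), SREBF1 (0.02), SCAP (0.01) and NPC1 (-0.11) barely differed, and PMVK was higher in replicate 2, at 0.44. The cause of the difference was not tested.

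Set against uninduced WT replicate 2, the 2 induced S34F libraries had medians of -0.06 and -0.07 over the 28 genes, with 15 and 16 of the 28 genes lower in the S34F library. Protein-coding genes had medians of -0.17 and -0.15 in these pairs, with 59.6% and 59.5% lower. The uninduced S34F library had a median of 0.20 against uninduced WT replicate 1 and 1.02 against replicate 2. The uninduced Q157R library had -0.14 against replicate 1 and 0.72 against replicate 2. Across the 28 genes, the S34F induced to uninduced ratio and the ratio of the 2 uninduced WT libraries, which share no library, had a Pearson r of 0.65 and a Spearman rho of 0.58. The points are genes of the same 5 libraries and are not independent, and no correlation over protein-coding genes is given beside these values. ACLY, SREBF1 and SREBF2 were low in induced S34F cells but not in uninduced WT replicate 2. HMGCS1, LSS, MSMO1, MVK, MVD, DHCR7, STARD4, SC5D, SCAP and TM7SF2 were lower in uninduced WT replicate 2 than in either induced S34F library.

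**Figure D5:**
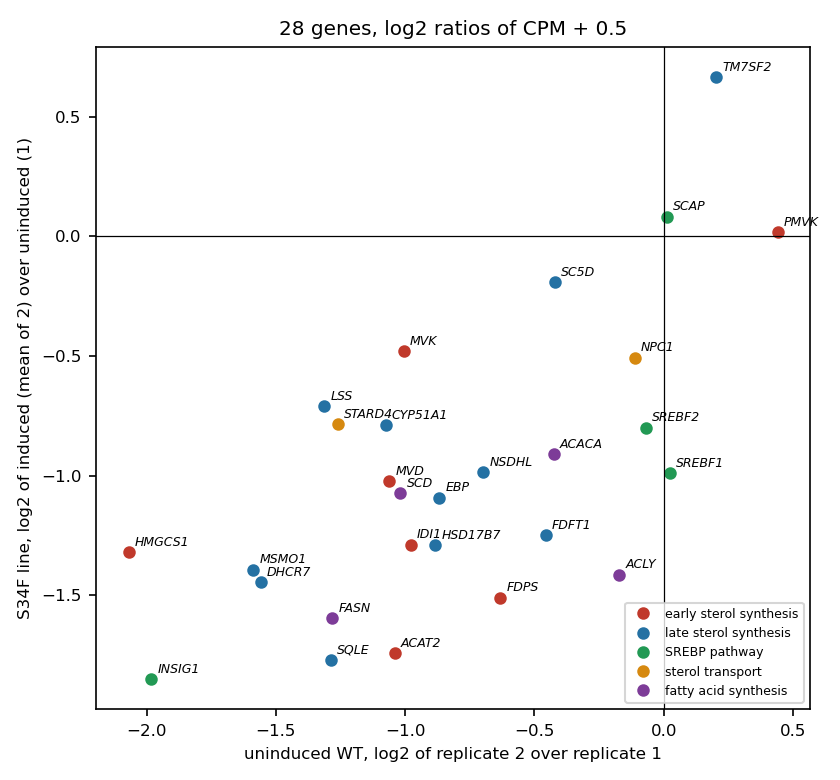
Each point is 1 of the 28 genes, coloured by role, with the log2 ratio of uninduced WT replicate 2 to replicate 1 on the x axis and the log2 ratio of induced to uninduced S34F cells on the y axis (CPM + 0.5). Most genes are below 0 on both axes (Pearson r 0.65 over 28 genes), while ACLY, SREBF1 and SREBF2 are low on the y axis only. NPC1 lies nearby, at -0.11 on the x axis and -0.51 on the y axis.

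Neighbouring genes of the pathway were counted in lists of their own for induced S34F against induced WT cells. The background for these counts is 1.67% of all entries called without the block. With it, 22.4% of all entries and 27.2% of protein-coding genes were called. Of 15 tested genes of fatty acid synthesis and desaturation outside the module, 13 had an estimate below 0 (median -0.50), 0 were called and 4 fell with the block. Among them were SLC25A1, the mitochondrial citrate carrier that feeds ACLY (log2 fold change -1.42, adjusted p = 0.0765; 0.00227 with the block), ME1, the cytosolic malic enzyme (-1.04, adjusted p = 0.0594; 0.00269 with the block), and FADS1, the delta-5 desaturase (-0.62, adjusted p = 0.0785; 0.00919 with the block). Among 9 other sterol genes, 7 were below 0 (median -0.36) and ACAT1, the mitochondrial acetoacetyl-CoA thiolase, fell in the fit without the block (log2 fold change -1.27, SE 0.21, adjusted p = 0.0443). With the block 2 of them fell and 1 rose, and FAXDC2, a relative of the sterol oxidases, was the gene that rose (log2 fold change 1.50, adjusted p = 0.0175). Among 13 genes of SREBP processing and degradation, 8 were below 0 (median -0.07), and ERLIN1, an endoplasmic reticulum protein that takes part in sterol-regulated protein degradation, fell without the block (-0.90, SE 0.15, adjusted p = 0.0448). With the block 3 fell and 1 rose. The gene that rose was MBTPS1, the site-1 protease that cuts the SREBP precursors (log2 fold change 0.45, adjusted p = 0.0412).

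Branches that draw on the pathway were counted in the same way. Among 15 isoprenoid genes 11 were below 0 (median -0.29), 0 were called, and with the block 1 fell and 2 rose. COQ2, which attaches the ubiquinone tail, fell (log2 fold change -0.88, adjusted p = 0.00388), while RABGGTB and PGGT1B, subunits of protein prenyltransferases, rose (0.96, adjusted p = 0.00137, and 0.51, adjusted p = 0.0213). Among 12 genes of sterol uptake, transport and esterification 7 were below 0 (median -0.02), 0 were called, and with the block 0 fell and MYLIP, a ligase that directs lipoprotein receptors to degradation, rose (0.60, adjusted p = 0.0246). Of 6 tested LXR targets and efflux genes 3 were below 0 (median -0.08), 0 were called, and with the block 2 fell and 2 rose. LPCAT3, a phospholipid remodelling enzyme, was among those that fell (-0.92, adjusted p = 0.00398), as was NR1H2, which encodes LXR beta (-0.75, adjusted p = 0.00359). The background is again 1.67% of all entries called without the block, and 22.4% of all entries and 27.2% of protein-coding genes with it.

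RNA crosslinked to U2AF1 or U2AF2 was counted per gene by eCLIP (7 libraries of 306711 to 1148212 gene counts) and by U2AF1 freCLIP (17 libraries of 38415 to 730996), in which the crosslinked complexes are split into a light and a heavy fraction. In eCLIP the 28 genes held 4823 counts in all, and in freCLIP 4477. Of the 28, 21 had fewer than 100 counts in each assay. Entries on opposite strands took many of the counts. MT-ND6, the only mitochondrial mRNA encoded on its strand, took 28.5% of mitochondrial mRNA counts in eCLIP and 53.0% in freCLIP, against 1.46% in RNA-seq. Gene entries named as antisense took 27.6% of eCLIP counts and 26.8% of freCLIP counts, against 0.498% in RNA-seq. For the 19 entries that overlap module genes on the other strand, the counts were 22131 in eCLIP and 18065 in freCLIP. SREBF2-AS1 had 4458 and 3749 counts in these assays, where SREBF2 had 11 and 25, and RUSC1-AS1, which overlaps FDPS, had 9102 and 6621, where FDPS had 421 and 464.

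Only 8 of the 28 genes passed the freCLIP filter on low counts, among 6833 entries: ACAT2 (677 counts over the 17 libraries), MVK (1385), IDI1 (296), FDPS (464), EBP (29), SREBF1 (286), SCAP (709) and NPC1 (256). Those below it with at least 20 counts were FDFT1 (23), LSS (27), TM7SF2 (33), INSIG1 (91), SREBF2 (25) and SCD (92). In eCLIP, ACAT2 (542), MVK (769), IDI1 (382), FDPS (421), SREBF1 (381), SCAP (1705) and NPC1 (287) had more than 100 counts, and FDFT1 (28), SQLE (35), TM7SF2 (45), INSIG1 (27), FASN (46), SCD (30) and ACACA (22) had at least 20. None of the 8 tested genes was called in any of the 4 freCLIP comparisons by edgeR's quasi-likelihood test. For the light fraction, S34F against WT had 23 entries called (0.337%) and 1 member at an unadjusted p under 0.05, and Q157R against WT had 519 entries called (7.60%) and 3 members at an unadjusted p under 0.05. For the heavy fraction, S34F against WT had 9 entries called (0.132%) and 1 member at an unadjusted p under 0.05, and Q157R against WT had 0 (0%), 149 entries and 0 members at an unadjusted p under 0.05. All of the 8 tested genes but EBP overlap a gene annotated on the opposite strand, as do several members below the filter, HMGCS1 and LSS among them. Given the counts on opposite strands, binding to a member's own transcript and a count of the other strand cannot be told apart in these values.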

How the data were processed

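RNA-seq was made from rRNA-depleted RNA of HEL cells in 10 libraries, with eCLIP (7 libraries) and freCLIP (17 libraries) on the same lines. The deposited values are raw read counts per annotated gene, whole numbers with no normalization; lines that name no gene entered neither library sizes nor tests. Per the submitters' processing notes, HISAT2, HTSeq, STAR (2.7.0f and 2.5.3a), cutadapt, SAMtools, DESeq2, edgeR and the build GRCh38.p10 were used, with no role given for each, and the strand setting is not given in the sources used here. TimeLapse-seq samples were not analysed here.

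Gene IDs were matched to GENCODE 29 (58084 of 58347 entries). Differences were tested with edgeR 4.0.16 in R 4.3.3: TMM scaling, filterByExpr with a minimum count of 10, 1 mean per group over all libraries of an assay, and the robust quasi-likelihood test with Benjamini-Hochberg adjustment over all entries and a threshold of 0.05. Technical eCLIP runs were not averaged, and eCLIP was not tested. Ratios of single libraries are of CPM plus a pseudocount of 0.5. The code was tested on simulated counts.

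The like-numbered RNA-seq libraries had residual correlations of 0.211 to 0.652 in all 6 pairs of groups, so the numbers were taken to pair the libraries, from the data and not the labels. The fit with the replicate number as a block is given where it changes a call. Other alternatives were DESeq2 1.42.0, RLE scaling, TMM from protein-coding genes, a fit of only the compared groups, no low-count filter, and leaving out each library.

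The members and the lists were chosen with earlier results of these data known. All 28 members are accounted for. Values in every RNA-seq library are given for members called with or without the block, the 8 members of lowest p in S34F against WT and the 3 of lowest p elsewhere; in CLIP, members with at least 20 counts are named, and up to 3 genes per list. Other members were singled out after their values were seen. Promoters come from RefSeq (GRCh38.p14).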

Additional observations from a re-analysis of the deposited data

Results flagged for a closer look

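The effect of induction differed between the S34F line and the WT line for 2 of the 28 genes when the replicate number was a block in edgeR's quasi-likelihood fit, which is what drew attention to them. For SQLE, induced against uninduced was lower in the S34F line than in the WT line by a log2 difference of -1.73 (SE 0.32, adjusted p = 0.0445). SQLE was lower on induction in both S34F comparisons with the single uninduced library, and higher in both WT replicate pairs. For ACLY the log2 difference was -1.24 (SE 0.23, adjusted p = 0.0396). Without the block neither passed (adjusted p = 0.59 for both). The uninduced S34F group has 1 library, and the 2 uninduced WT libraries had 619 and 254 CPM of SQLE and 667 and 592 CPM of ACLY. No outlying library could be tested for, since no RNA-seq group has more than 2 libraries.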

How the results depend on the processing

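The members' median in the RNA-seq comparisons that involve S34F was below 0 under every alternative run, but the number of calls moved, and with it the share of all entries called, given in brackets. For S34F against WT, 1 member was called (1.67%), against 11 with the replicate block (22.4%), 5 with DESeq2 (9.69%), 14 with no filter on low counts (6.23%), 0 with only the compared groups (0%), and 0 to 0 on leaving out each library (0%). For S34F against Q157R, 1 member was called (0.559%), against 6 with the replicate block (20%), 4 with DESeq2 (7.31%), 0 with protein-coding TMM (0.582%), 12 with no filter (5.52%), 0 with only the compared groups (0%), and 0 to 0 on leaving out each library (0%). For induction in the S34F line, 2 were called (1.96%), against 12 with the replicate block (19.2%), 11 with DESeq2 (11%), 1 with protein-coding TMM (1.12%), 20 with no filter (7.74%), 20 with only the compared groups (21.5%), and 0 to 0 on leaving out each library (0%). For S34F against WT induction, 0 were called (0%), against 2 with the replicate block (0.704%) and 15 with no filter (0.791%). For the light freCLIP fraction of Q157R against WT, 0 were called (7.60%), against 0 to 3 on leaving out each library (3 without Q157R replicate 2, with 13.5%, and 1 without WT replicate 4, with 8.31%). DESeq2 shares are of entries with an adjusted p. The cause of these differences was not tested.

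With the block and 1 library left out, a setting chosen after seeing the data, S34F against WT had 2 to 12 members called, 2 without S34F replicate 1 (5.43% of all entries), 3 without WT replicate 2 (5.52%), 6 without WT replicate 1 (5.37%) and 12 without S34F replicate 2 (13.1%). S34F against Q157R had 2 to 9, the 2 without S34F replicate 1 (3.94%) or Q157R replicate 1 (4.90%), 4 without Q157R replicate 2 (12.6%) and the 9 without S34F replicate 2 (11.1%). Induction in the S34F line had 1 without replicate 1 (2.90%) and 12 without replicate 2 (17.2%). S34F against WT induction had 0 to 19, with 19 without uninduced WT replicate 1 (4.67%) and 7 without replicate 2 (1.02%). Without uninduced WT replicate 1 there were 8 for induction in the WT line (2.16%) and 2 for Q157R against WT induction (0.0612%), each 0 otherwise. With the block and without uninduced WT replicate 2, the STARD4 difference in the WT line was -0.21, of opposite sign. Leaving out single libraries, the members' median was -0.91 to -0.62 for S34F against WT and -1.15 to -1.01 for induction in the S34F line, but -0.16 to 0.63 for induction in the WT line. Of 2240 member values under the alternatives set at the start, 144 had the opposite sign while called in neither fit. Groups of 1 or 2 libraries limit every test, and CYP51A1, at 531 RNA-seq counts over all libraries, is the least deeply measured member.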
